A study of Mus musculus with 8 samples.

Results

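The regions described here are places where ZFP281 chromatin immunoprecipitation sequencing (ChIP-seq) peaked close to 2 or more protein-coding genes at once, in both early lesion and primary tumour spheres. Merging the summits of all 6 deposited lists within 200 bp of each other gave 19317 regions, of which 2886 held a summit from at least 2 of the 3 early lesion (EL) libraries and at least 2 of the 3 primary tumour (PT) libraries. Among these shared regions, 181 lay within 1 kb of a boundary, start or end, of 2 or more protein-coding genes of the mm10 RefSeq annotation, and these 181 are the members. The members were chosen by the presence of summits in both groups, together with the distance to genes, so their presence in both groups is a description and not a result. The members touched 365 of 21887 protein-coding genes, with 175 members near 2 genes and 6 near 3. Most members were not strictly between their genes. By the median summit position, 35 lay outside all of their own nearby genes (19.3%), 121 inside 1 (66.9%) and 25 inside 2 or more (13.8%). Other genes that might span a region were not checked.

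Cells came from MMTV-HER2/Neu mice on the FvB background, which express the HER2/Neu oncogene from the mouse mammary tumour virus promoter, chiefly in mammary epithelium. The EL mice were 14 to 18 weeks old with no palpable tumour, and the PT mice were over 20 weeks old with at least 1 primary tumour. Digested mammary glands or tumours were grown for 7 days as spheres on ultra-low adhesion plates before ChIP with an antibody to ZFP281. There were 3 ZFP281 libraries a group and 1 input library a group. Both groups carry the transgene, and no group without it is in the series, so stage, age and tissue of origin cannot be told apart. Animals are not named, although the 3 libraries of a group are labelled as biological replicates, so p-values measure the spread between these libraries. The tissue label of the EL libraries reads "mammary lung" and that of the PT libraries "breast tumor", and summit lists give no expression level with which to check either.

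ZFP281 is a zinc finger transcription factor that binds G-rich DNA, is best known from embryonic stem cells, and acts both as an activator and as a repressor through chromatin-modifying complexes. Closely spaced mammalian genes are often transcribed away from each other from a shared stretch of promoter DNA, called a bidirectional or head-to-head promoter. Such promoters are typically rich in G and C, lack a TATA box and tend to serve housekeeping genes. A ChIP peak at such a place cannot be given to one of the 2 genes from its position.

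Promoter sequences of 6 strong members are shown first, as examples for the position and motif results. These are the 6 members with the highest lowest score percentile among those with a summit inside a 300-base promoter window of the RefSeq table (build GRCm38.p6, mm10), which runs from 250 bases before a gene's start to 50 after it, so that the start is base 251. They are written 5′ to 3′ on the strand of the named gene, and capitals mark GGGGAGGGG or its complement CCCCTCCCC.
Ndor1 (with Tmem203; chr2:25255365-25255664, minus strand): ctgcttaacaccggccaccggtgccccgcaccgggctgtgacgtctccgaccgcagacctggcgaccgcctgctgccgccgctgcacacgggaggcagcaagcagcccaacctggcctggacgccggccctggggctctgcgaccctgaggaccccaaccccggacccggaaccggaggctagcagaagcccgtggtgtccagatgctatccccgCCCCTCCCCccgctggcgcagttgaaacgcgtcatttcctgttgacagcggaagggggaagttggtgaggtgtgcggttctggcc
Elf1 (with Wbp4; chr14:79480944-79481243, plus strand): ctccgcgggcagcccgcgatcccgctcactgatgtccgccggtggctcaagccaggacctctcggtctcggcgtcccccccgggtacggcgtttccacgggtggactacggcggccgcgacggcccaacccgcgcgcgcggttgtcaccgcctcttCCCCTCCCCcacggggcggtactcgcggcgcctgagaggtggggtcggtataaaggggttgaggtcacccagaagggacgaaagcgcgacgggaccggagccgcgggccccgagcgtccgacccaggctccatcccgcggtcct
Shoc2 (with Bbip1; chr19:53944626-53944925, plus strand): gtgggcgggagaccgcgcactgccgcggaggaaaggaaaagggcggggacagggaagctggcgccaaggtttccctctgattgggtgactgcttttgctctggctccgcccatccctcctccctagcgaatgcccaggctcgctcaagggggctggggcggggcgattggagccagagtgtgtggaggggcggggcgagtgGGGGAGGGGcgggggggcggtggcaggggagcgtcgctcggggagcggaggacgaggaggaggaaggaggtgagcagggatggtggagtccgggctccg
B3galt4 (with Rps18; chr17:33951439-33951738, minus strand): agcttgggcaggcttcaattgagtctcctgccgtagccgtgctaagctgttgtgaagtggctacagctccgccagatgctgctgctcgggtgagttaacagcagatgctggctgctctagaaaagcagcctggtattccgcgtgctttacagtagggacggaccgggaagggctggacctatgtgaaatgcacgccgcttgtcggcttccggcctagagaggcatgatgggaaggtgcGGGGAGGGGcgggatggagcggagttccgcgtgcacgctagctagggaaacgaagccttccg
Zfp513 (with Ppm1g; chr5:31202254-31202553, minus strand): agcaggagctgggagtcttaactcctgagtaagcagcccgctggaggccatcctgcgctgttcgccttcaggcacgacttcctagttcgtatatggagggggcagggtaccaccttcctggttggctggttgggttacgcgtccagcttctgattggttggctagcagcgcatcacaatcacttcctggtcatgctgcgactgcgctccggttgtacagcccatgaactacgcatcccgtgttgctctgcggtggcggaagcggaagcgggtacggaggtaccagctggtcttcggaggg
Zbed6 (with Zc3h11a; chr1:133660836-133661135, minus strand): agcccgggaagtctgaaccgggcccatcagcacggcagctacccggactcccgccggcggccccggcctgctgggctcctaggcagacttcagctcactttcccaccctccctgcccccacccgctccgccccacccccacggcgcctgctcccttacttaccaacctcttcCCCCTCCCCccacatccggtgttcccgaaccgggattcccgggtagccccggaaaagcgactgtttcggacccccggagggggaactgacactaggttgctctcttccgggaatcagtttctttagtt
The motif began at base 216 in the Ndor1 window, among summits of the 6 libraries that spanned bases 199 to 230. In the Elf1 window it began at base 157, with summits from base 126 to 163. The B3galt4 window had it at base 239, just before summits at bases 241 to 279. In the Shoc2 window the motif at base 202 lay upstream of the summits, which began at base 248 and ran past the window. The Zbed6 motif at base 173 lay downstream of summits at bases 25 to 126. The Zfp513 window held no exact match, although its summits fell within bases 94 to 130.

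Summit scores differ in scale between libraries, so each was turned into a percentile, the percent of summits in the same list with a score at or below it. The lists held 8588, 15770 and 7055 summits in EL libraries 1 to 3 and 2897, 4030 and 6033 in PT libraries 1 to 3. Sequencing depth is unknown from these lists. Of the 181 members, 173, 179 and 169 had a summit in EL libraries 1 to 3, and 142, 167 and 178 in PT libraries 1 to 3. A summit in all 6 libraries was found for 116 members, in 5 libraries for 52 and in 4 for 13. The shortest list, PT library 1, lacked 39 members and was the only missing library for 29 of them. Just outside the presence rule, 39 regions near 2 or more genes had summits in 3 EL and 1 PT libraries, 35 in 2 EL and 1 PT, and 9 in 1 EL and 2 PT.

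**Figure D1:**
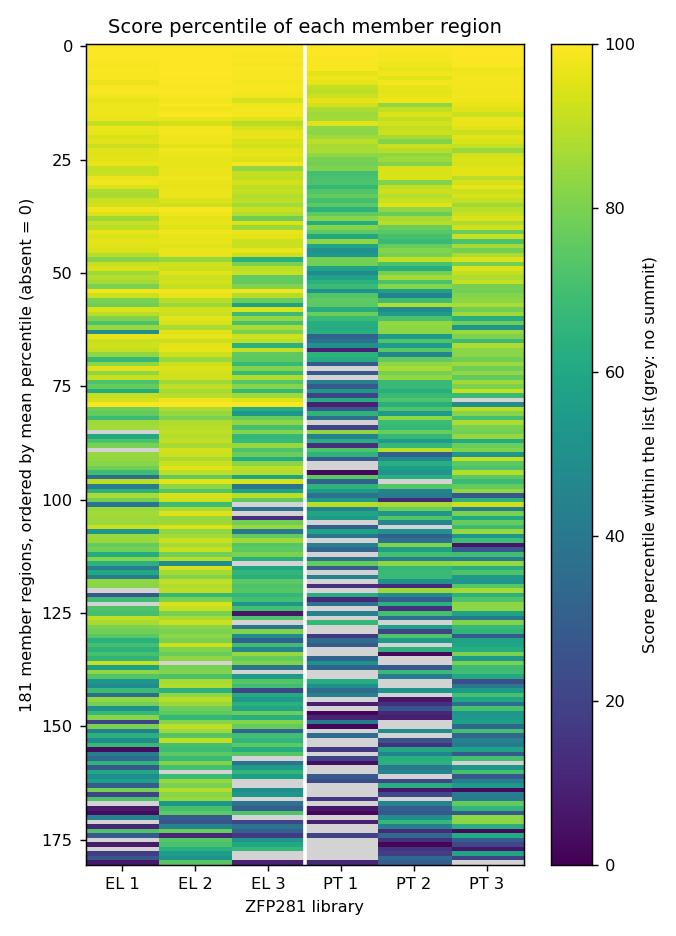
Score percentile (colour, 0 to 100) of each of the 181 member regions (rows, ordered by mean percentile) in the 6 ZFP281 libraries (columns), with grey where a library had no summit. The top rows are high in all 6 columns, and PT library 1, which lacked 39 members, has the most grey cells of the 6 columns.

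Across the members, the median percentile was 83.1, 90.4 and 77.3 in EL libraries 1 to 3 and 60.7, 67.8 and 78.7 in PT libraries 1 to 3. The corresponding median scores stood at 20.6, 38.2 and 16.2 in the EL libraries, and 12.1, 13.4 and 18.2 in the PT ones. The score, read from the values as −log10 of a q-value, is the authors' own for each summit. EL library 2, with the longest list, stood highest, and EL library 3 stood just under PT library 3. Among the 116 members in all 6 libraries, the lowest percentile of a member fell in PT library 1 for 65. Fewer cells with ZFP281 bound and less ZFP281 bound per cell cannot be told apart in such data.

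The strongest member lay near Kmt2b, which encodes a histone H3 lysine 4 methyltransferase, and Zbtb32, a zinc finger repressor gene, at chr7:30588750-30588785. Its percentiles were 99.8, 99.9 and 99.9 in the EL libraries and 99.6, 99.4 and 99.9 in the PT libraries. It stood in the top 1% of all 6 lists, 271 bp from the nearest boundary of one gene and 895 bp from that of the other. The region shared by Tmem203, for an endoplasmic reticulum membrane protein, and Ndor1, for a flavoprotein reductase of cytosolic iron-sulfur cluster assembly, followed with 99.3, 99.98 and 99.6 in EL and 99.7, 99.1 and 99.8 in PT. At Elf1, an ETS-family transcription factor gene, and Wbp4, a spliceosome-associated protein gene, the EL percentiles were 99.4, 99.8 and 99.3, and the PT percentiles 98.9, 98.6 and 99.6. The Elf1 and Wbp4 region lay 68 bp from one gene boundary and 162 bp from the other. EL and PT values overlapped in all 3 members.

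The next strongest members lay at genes of several kinds. Hnrnpa2b1, an RNA-binding protein gene, and Cbx3, the heterochromatin protein HP1 gamma gene, share a well known divergent promoter. Their member at chr6:51469269-51469394 reached 99.7, 99.9 and 98.9 in EL and 99.4, 98.5 and 99.9 in PT. It lay inside Hnrnpa2b1, 654 bp from its boundary and 760 bp from that of Cbx3, and not between the starts of the genes. The pair Bbip1, a BBSome subunit gene, and Shoc2, a scaffold gene of RAS signalling, had a lowest percentile of 97.4. B3galt4, a glycosyltransferase gene, and Rps18, a small ribosomal subunit protein gene, had 99.2, 99.6 and 99.3 in EL and 99.0, 96.4 and 97.4 in PT, so their EL values all lay above their PT values by a mean of 1.75 points. At equal list lengths the groups overlapped, with 97.5, 97.7 and 98.2 in EL and 98.96, 94.99 and 94.6 in PT. The lowest percentile was 96.2 at Zfp513, a zinc finger gene, and Ppm1g, a phosphatase gene with a role in splicing. It was 96.0 at Zbed6, a transposon-derived repressor gene inside an intron of its host Zc3h11a, and 95.7 at Cep95 and the RNA helicase gene Ddx5.

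The last of the 12 strongest members were at Lamtor1, which encodes the lysosomal anchor of the Ragulator complex, and Tomt, with a lowest percentile of 93.3. Samd1 and Prkaca, the latter encoding a catalytic subunit of protein kinase A, had a lowest percentile of 92.3. Ewsr1, an RNA-binding protein gene, and Rhbdd3 had one of 91.0. In all, 13 members stood in the top 10% of all 6 lists. At the other end, 11 of the 116 members in all 6 libraries had a percentile under 10 in at least 1 list.

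The summits of a member lay close together. The span of all its summits had a median of 101 bp, from 16 to 359 bp, and was at most 100 bp in 90 members. The median EL and median PT summit positions differed by a median of 20 bp and at most 169 bp, and by at most 50 bp in 150 members. An entry for the start of at least 1 of their genes was found in the RefSeq promoter table for 168 members. The median summit lay a median of 178 bp from the nearest such start, 79 upstream and 89 downstream, with 103 at most 250 bp away. Of the 168, 18 members lay over 1 kb from every listed start of their genes. Some of these distances run to the farther gene, because the nearer gene had no entry. The Kmt2b and Zbtb32 member, for example, was measured at 4177.5 bp from Zbtb32, though it lay 271 bp from a boundary of Kmt2b. Such members are not shown to be far from a gene start, and they enter the upstream and downstream counts.

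**Figure D2:**
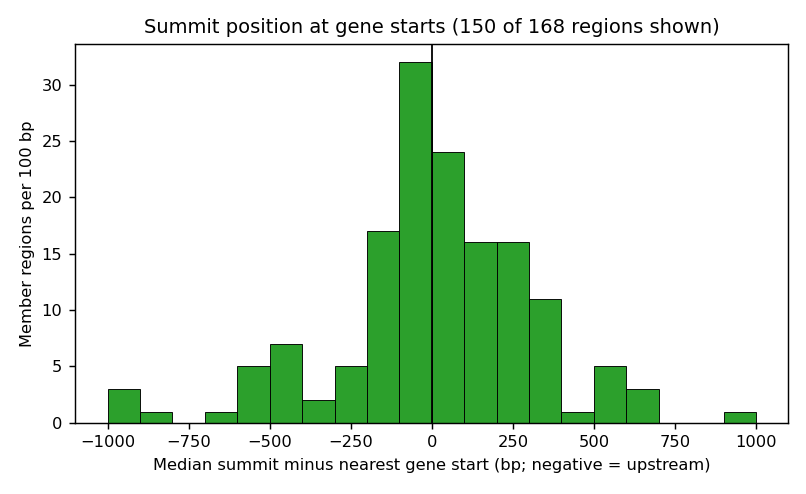
Distance in bp from the nearest listed gene start to the median summit of a member (x axis, negative upstream) against the number of members per 100 bp (y axis), for the 150 members within 1 kb. The histogram peaks in the 100 bp on either side of the start.

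Strands taken from the promoter table gave the arrangement of 147 of the 193 member gene pairs. Head-to-head pairs, whose neighbouring ends are both gene starts, numbered 92, or 62.6% (95% Wilson interval 54.5 to 69.99%). Among all 4810 pairs of protein-coding genes at most 2 kb apart, 3129 with known strands, 32.1% were head-to-head (30.5 to 33.8%). Head-to-tail pairs made up 30.6% of member pairs and 31.2% of all pairs. Only 3 member pairs were tail-to-tail, or 2.04% (0.696 to 5.83%), against 33.5% of all close pairs (31.9 to 35.2%). Member pairs thus held more divergent and fewer convergent genes than the annotation, which was described and not tested. Of the 1153 shared regions near exactly 1 gene, 898 had a known gene start as the nearest boundary. A lean towards gene starts was therefore not particular to the members.

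**Figure D3:**
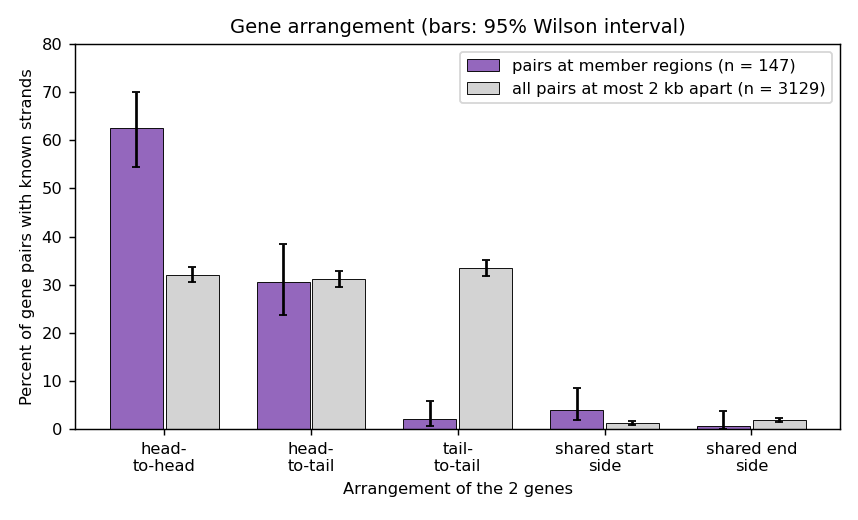
Percent of gene pairs with known strands (y axis) in each arrangement (x axis), for the 147 pairs at member regions and the 3129 pairs at most 2 kb apart, with 95% Wilson intervals as error bars. The member bar is about 62.6% at head-to-head and 2.04% at tail-to-tail, where all pairs stand at 32.1% and 33.5%.

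The gap between the starts of the head-to-head pairs had a median of 4 bp. It ran from -1568 bp, an overlap, to a separation of 892 bp, with 44 pairs overlapping and 45 separated by under 500 bp. The summit lay between both starts in 26 of the 90 members with such a pair. At Phf7 and Bap1, the latter a tumour suppressor gene for a histone H2A deubiquitinase, the starts were 8 bp apart. Hspe1 and Hspd1, the mitochondrial chaperonin genes and a textbook bidirectional pair, overlapped by 95 bp, and their percentiles stood at 42.3, 83.1 and 38.2 in the EL libraries, and 65.1, 73.7 and 75.9 in the PT ones. The tail-to-tail members were at Zbtb7b and Dcst2, at Stat6 and Nab2, and at Pfn1, Rnf167 and Eno3. Head-to-head members had higher median percentiles than the 41 head-to-tail members in 6 of 6 libraries, with 84.8 against 83.3, 92.4 against 89.9 and 80.9 against 75.3 in EL. In PT they had 63.5 against 61.8, 72.7 against 69.2 and 79.97 against 78.8. This comparison was not tested.

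Some members lie where gene models overlap. Of the 6 members near 3 genes, the one at Chtf8, Derpc and Utp4 had the highest values, 94.9, 97.4 and 88.4 in EL and 75.2, 76.8 and 91.6 in PT. Chtf8, for a subunit of an alternative clamp loader, faces Utp4, a ribosome biogenesis gene, across 47 bp. Stx5a, a Golgi SNARE gene, shared a member with 1700092M07Rik and Wdr74, with 83.3, 92.6 and 75.3 in EL and 64.5, 46.01 and 82.1 in PT. The members at Shld3, Trappc13 and Trim23, at Adam15, Dcst1 and Dcst2, at Il4i1b, Nup62 and Atf5, and at Pfn1, Rnf167 and Eno3 each lacked PT library 1. Dcst2, Hcfc1r1 and the splicing factor gene U2af2 each lay near 2 members. A gene with a predicted-gene or RIKEN symbol took part in 26 members.

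Members were counted by chromosome. Chromosome 7 held 28 members, 15.5% of them, against 9.19% of all close gene pairs, and chromosome 11 held 23, 12.7% against 8.96%. These chromosomes held the most members. The others were not set beside close pairs, and the difference was not tested.

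Motifs were searched on both strands of promoter windows that held a member summit, with a single window per member. Such a window was found for 89 of the 181 members, and the median GC content of these 89 windows was 67.0%. The other members had no such window, so the motif shares of member windows do not cover them. The window at Gm46608 and Qk was that of another gene, Cahm. A G-rich motif of the kind ZFP281 binds, GGGGAGGGG, occurred in 42 of the 89 windows, or 47.2% (95% Wilson interval 37.2 to 57.5%). It occurred in 6.37% of all 32851 promoter windows of this length and in 10.95% of the 6883 between the member windows' GC quartiles of 60.7 and 71.7%. In windows under shared regions near exactly 1 gene it occurred in 45.1% (209 of 463; 40.7 to 49.7%), and under EL-only regions, those with summits in at least 2 EL and no PT libraries, in 19.8% (50 of 253; 15.3 to 25.1%). Under PT-only regions, with summits in at least 2 PT and no EL libraries, it occurred in 4 of 15 windows (26.7%; 10.9 to 52.0%), an interval that overlaps that of the members. The intervals of members and one-gene shared regions overlapped. Head-to-head promoters in general did not carry it often, at 6.50% of 2552. Over all 407 promoter windows of member genes, with or without a summit, the share was 18.7%.

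The nearest G-rich motif lay a median of 20.5 bp from the median summit, and within 50 bp in 34 of the 42 windows. For the GC box, GGGGCGGGG, which can share its G runs with the G-rich motif, the distance was 60.5 bp, and 10 of 26 lay within 50 bp. The ETS motif CCGGAAG lay 81.5 bp away, with 5 of 23 within 50 bp. Of these 3 motifs the G-rich one was the nearest to the summits, by medians. The same order held under one-gene shared regions, at 22 bp for the G-rich motif, 60 bp for the GC box and 72.5 bp for the ETS motif. There the G-rich motif lay within 50 bp in 157 of 209 windows. The GC box occurred in 29.2% of member windows and 27.0% of windows in their GC range. The ETS motif occurred in 25.8% of member windows (17.9 to 35.8%), 13.6% of one-gene windows (10.8 to 17.0%), and 23.5% of head-to-head promoters in general. In windows of the same GC range the ETS motif had a share of 18.1%. CCAAT was in 25.8% of member windows, 34.6% of those in their GC range and 37.4% of all. TATAAA was in 4.49%, 3.65% and 13.6% in the same order, and the E-box CACGTG in 13.5%, 11.3% and 7.15%. For each of these 3 the GC-range share lay inside the interval of the member windows. The palindromic NRF1 motif and the CRE TGACGTCA each occurred in 1 window.

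**Figure D4:**
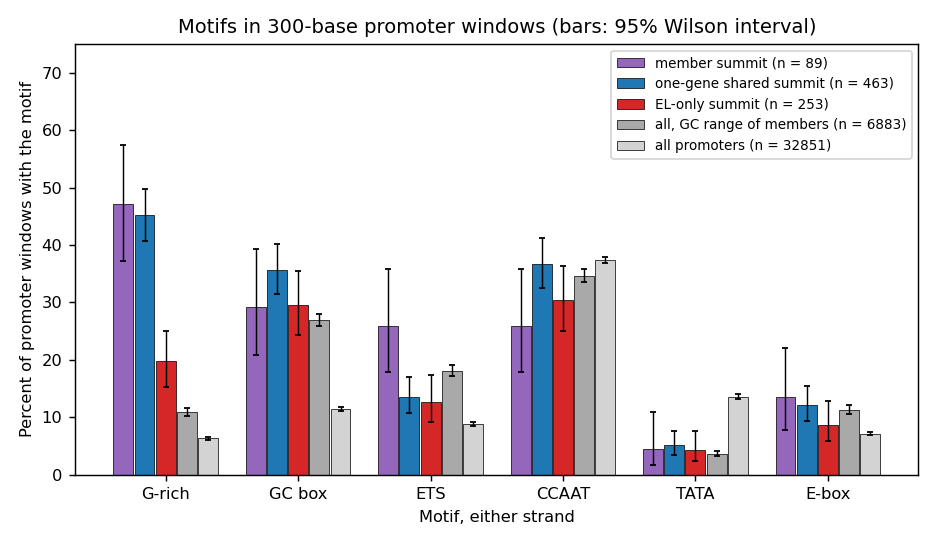
Percent of 300-base promoter windows holding a motif on either strand (y axis) for 6 motifs (x axis) in 5 sets of windows, with 95% Wilson intervals as error bars. The G-rich bars reach 47.2% under members and 45.1% under one-gene shared regions, against 19.8% under EL-only regions and 6.37% of all promoters.

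More than 1 G-rich motif stood in 9 member windows. The Mrpl14 window, at a mitochondrial ribosomal protein gene facing Tmem63b, held 4 of them, at bases 76, 82, 145 and 178, under summits that spanned bases 56 to 248. The percentiles there reached 87.6, 96.9 and 91.4 in the EL libraries, and 72.7, 92.3 and 91.9 in the PT ones. Both G-rich and ETS motifs stood in 9 windows, and neither in 33. Among the members with a window, those with the G-rich motif had higher median percentiles than those without it in 6 of 6 libraries. The values were 90.8 against 80.6, 95.1 against 90.2 and 83.7 against 75.5 in EL. The PT values were 66.4 against 59.3, 72.7 against 67.8 and 87.6 against 71.0, and this comparison was not tested.

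A question the design allows is whether summits near 2 or more genes take a different share of the EL and PT lists. They made up 4.15, 3.60 and 4.44% of EL libraries 1 to 3 and 5.01, 5.06 and 5.27% of PT libraries 1 to 3. The mean was 4.06% ± 0.424 (SD, n = 3) in EL and 5.11% ± 0.140 (SD, n = 3) in PT. Every PT value exceeded every EL value, and an exact two-sided permutation test over 20 relabellings gave p = 0.1, the smallest it allows for 3 against 3. At equal list lengths, with the 2897 highest summits of each list, the means were 5.50% ± 0.321 and 5.40% ± 0.437, a difference of 0.104 points (exact permutation p = 0.8). The separation of the groups was therefore not kept at equal list lengths. Limits on the score, at least 5 or at least 10, left differences of -0.791 and -1.06 points. Among merged regions, 181 of 2886 shared ones lay near 2 or more genes (6.27%, 5.44 to 7.22%), as did 108 of 4445 EL-only ones (2.43%, 2.02 to 2.93%). The PT-only regions had 6 of 411 (1.46%, 0.671 to 3.15%). Over all 19317 merged regions, 730 lay near 2 or more genes (3.78%). Wilson intervals cover counting error only.

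Member percentiles were next set beside those of the 1153 shared regions near exactly 1 gene. The library medians of the latter stood at 80.2, 89.8 and 78.3 in the EL libraries, and 58.9, 61.2 and 75.1 in the PT ones. Members were higher by 2.90 and 0.672 points in EL libraries 1 and 2, lower in EL library 3 at -1.02, and higher by 1.86, 6.67 and 3.60 in PT libraries 1 to 3. The mean difference was 2.45 points (SD 2.64, n = 6 libraries), positive in 5 of 6, with an exact two-sided sign-flip permutation p = 0.09375 and an adjusted p of 0.1 over the 2 main tests. It did not pass 0.05. Restricted to regions with a summit in all 6 libraries, the mean difference was -1.45 points (exact permutation p = 0.03125, the smallest for 6 libraries), so the direction turned. Without PT library 2 it was -0.192, and without PT library 3 it was -0.426. No ranking of members over one-gene regions holds across these settings.

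Differences between EL and PT were described for the 116 members in all 6 libraries. All 3 EL percentiles lay above all 3 PT percentiles in 44 (37.9%), beside 36.5% of all 1573 regions with a summit in all 6 libraries. The reverse held for 0 members, beside 4.13% of all such regions. Of the 678 one-gene shared regions in all 6 libraries, 245 and 12 did so in the respective directions. The members' share with higher EL values was thus near the background, and list lengths differed between the groups. At equal list lengths, 11 of the 79 members in all 6 libraries had EL above PT (13.9%; background 18.0%) and 7 had PT above EL (8.86%; background 14.1%). Of the 181 members, 121 still had at least 2 EL and 2 PT summits in the shortened lists.

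**Figure D5:**
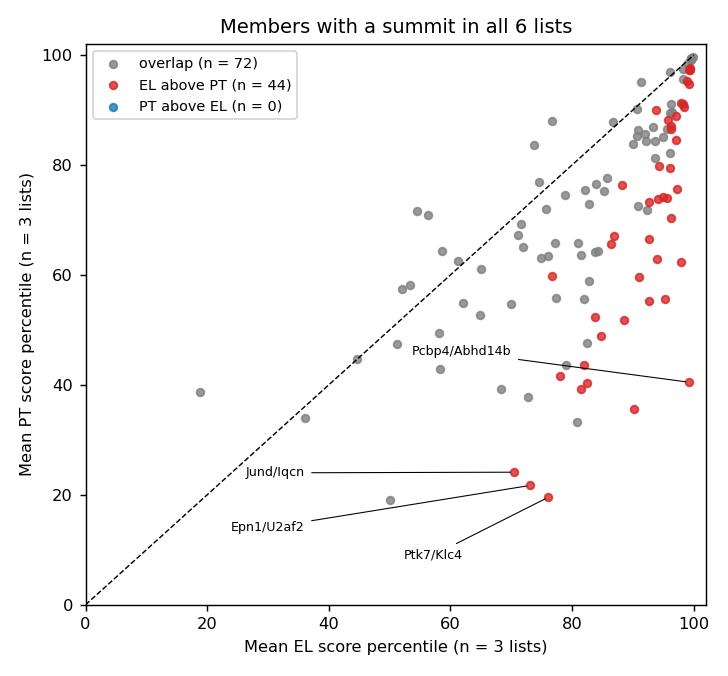
Mean score percentile over 3 EL lists (x axis) against that over 3 PT lists (y axis) for the 116 members in all 6 lists, with the line of equality dashed and 4 of the largest differences named. The 44 members whose 3 EL values all exceed their 3 PT values are red, and no member shows the reverse at full list lengths.

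The largest such difference was at Pcbp4, an RNA-binding protein gene, and Abhd14b, a hydrolase-family gene, at chr9:106452972-106453290. Percentiles were 99.1, 99.6 and 99.1 in EL (mean 99.3 ± 0.268, SD, n = 3) and 9.18, 63.0 and 49.3 in PT (mean 40.5 ± 28.0, SD, n = 3). The groups stood 58.8 points apart, and the PT values varied widely among themselves. At Ptk7, a Wnt-pathway pseudokinase receptor gene, and Klc4, a kinesin light chain gene, EL had 79.1, 85.0 and 64.2 and PT had 8.53, 13.7 and 36.4. There too every EL value exceeded every PT value.

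A further such member was at Epn1, an endocytic adaptor gene, and U2af2, with 67.2, 74.6 and 77.3 in EL and 1.52, 11.6 and 52.0 in PT. Another was at Jund, an AP-1 subunit gene, and Iqcn, with 81.7, 66.8 and 62.9 in EL and 9.94, 8.29 and 54.1 in PT. In both, PT library 3 was the PT library nearest to the EL values. None of these 4 kept a summit in all 6 lists at equal list lengths.

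At equal list lengths, the members with EL above PT included Smc4, for a condensin subunit, and Ift80, for an intraflagellar transport protein, with 90.5, 81.8 and 81.5 in EL against 32.2, 36.6 and 59.0 in PT. Another was U2af1l4, a splicing factor gene, and Psenen, a gamma-secretase subunit gene, with 93.6, 89.3 and 94.6 against 51.2, 40.4 and 55.8. The 7 members with PT above EL at equal lengths, named after their values were seen, were at Elmo3 and E2f4, Rab5b and Pmel, 4930524J08Rik and Hnrnpd, Senp8 and Myo9a, Atg3 and Slc35a5, Lpxn and Zfp91, and Lamtor1 and Tomt. At Elmo3, an engulfment and motility gene, and E2f4, a repressor E2F of the cell cycle, percentiles reached 46.6, 13.7 and 12.8 in the EL libraries, and 79.0, 86.7 and 89.0 in the PT ones. At full lengths the same member had 81.99, 84.2 and 64.2 in EL and 79.0, 90.4 and 94.7 in PT, which overlap.

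Genes of cell functions were counted by lists, with 365 of 21887 genes near a member as the background (1.67%), or 5.18% of the 7048 genes with another gene boundary at most 2 kb away. The second share is used below, since the rule asks for 2 genes close together. These counts are descriptions with no test. Chromatin regulators had 9 of 65 such genes near members (13.8%), cell cycle genes 5 of 36 (13.9%) and genes with zinc finger symbols 15 of 110 (13.6%). Splicing and RNA processing genes had 10 of 110 (9.09%) and ubiquitin and proteasome genes 14 of 165 (8.48%). Vesicle transport genes had 9 of 133 (6.77%), near the background.

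Among chromatin genes, Kmt2b and Cbx3 led, followed by Mbd6, whose member with Ddit3, a stress-response transcription factor gene, had 97.1, 97.4 and 90.3 in EL and 71.2, 94.9 and 89.2 in PT. Bap1 had 81.1, 95.4 and 84.0 in EL and 67.4, 71.2 and 62.4 in PT, all EL above PT, but at equal list lengths the groups overlapped. The others on the chromatin list were Arid4b, Kat8, Kdm5b, Kdm6b and Setd3, the last better known as an actin methyltransferase gene. Of the zinc finger list, Zbtb32 and Zfp513 were followed by Zfp36l1, an mRNA-decay factor that the symbol pattern took in, and Zbtb26, whose member with Rabgap1 had 95.5, 97.2 and 96.3 in EL and 83.0, 83.1 and 93.7 in PT. The groups overlapped at the Zbtb26 member at equal list lengths. The pattern also took in Zbtb8os, named for the strand opposite a zinc finger gene, and Zbtb1 and Zbtb25 were counted from the same member.

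RNA processing genes besides Hnrnpa2b1 and Ddx5 included Hnrnph3, with 94.1, 97.5 and 96.6 in EL and 85.4, 86.9 and 96.0 in PT. The cell cycle genes were E2f4, Ccnk, for a transcription cyclin, Smc4, Cdc40, a splicing factor gene by function, and Cdk5, a kinase mainly of neurons. Cdc40 shared its member with Wasf1, an actin regulator gene, with 85.0, 86.3 and 75.9 in EL and 39.0, 29.7 and 52.5 in PT. At equal list lengths the EL and PT values of this member overlapped. Ubiquitin-list members were led by Rnf214 (lowest percentile 86.1), Rnf5 (67.8), Trim28, the KRAB corepressor gene (53.4), and Fbxo38 (44.6). The vesicle transport members included those at Ap4b1 (64.7), Stx5a (46.01) and Rab5b (43.5).

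Other housekeeping lists, which often sit at divergent promoters, were near or under the background. Mitochondrial genes had 7 of 131 (5.34%), with Mrpl14, Mrpl34, Ndufa13 and Mrpl41 in all 6 libraries. At Mrpl34 and Abhd8 the percentiles reached 84.5, 92.4 and 77.3 in the EL libraries, and 64.5, 29.7 and 52.4 in the PT ones. The groups overlapped there at equal list lengths. Cytosolic ribosomal protein genes had 1 of 41, Rps18 (2.44%), and translation and tRNA genes had Tsen54 and Yars among 67 (2.99%). DNA repair and replication genes had 1 of 82, Rad51d with Rffl (1.22%), which had 63.9, 73.3 and 69.3 in EL, 35.9 and 33.3 in PT libraries 1 and 3, and no summit in PT library 2.

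Developmental and signalling genes were counted in the same way. Six5, Foxj1, Tead3 and Pbx2 were 4 of 44 homeobox and developmental genes with a close neighbour (9.09%). Six5, next to Dmpk, had 91.7, 96.6 and 94.7 in EL and 62.03, 89.5 and 87.8 in PT, and the groups overlapped at equal list lengths. Jund, Map3k10 and Mapk1ip1l were 3 of 52 genes of the TGF-beta, BMP, Wnt and ERBB list (5.77%), the last by its symbol pattern. Genes of epithelial-mesenchymal transition had 0 of 6 with a close neighbour. Marker lists had 0 of 3 for mammary epithelium, 0 of 1 for fibroblasts and adipocytes, 0 of 8 for leukocytes, 0 of 5 for endothelium and 1 of 5 for lung epithelium. That 1 was Foxj1, the ciliated-cell factor gene, next to Rnf157, with 80.2, 82.3 and 38.5 in EL, no summit in PT library 1, and 57.2 and 67.5 in PT libraries 2 and 3. Zfp281 itself lay near 2 regions, each near 1 gene, so it was not touched by a member.

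Close to the 1 kb limit, the member at Stat6 and Nab2 lay 999 bp from its second gene, with 28.5, 11.2 and 16.6 in EL and 20.3, 34.0 and 61.6 in PT. Those at Mtfp1 and Sec14l2 and at Slc35g3 and Polr2a lay 981 and 978 bp away. Just outside were regions at Zfp654 and Cggbp1 (1002 bp), at the histone genes H4c9 and H2ac11 (1004 bp) and a second region at Zbtb1 and Zbtb25 (1017 bp). The H4c9 and H2ac11 region had 93.7, 96.1 and 84.0 in EL and 77.1, 88.4 and 85.6 in PT, higher than the Stat6 and Nab2 member in every library.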

How the data were processed

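ZFP281 ChIP-seq libraries from 3 EL and 3 PT sphere samples were analysed as the 6 summit lists that the authors deposited, 1 list a library, not pooled. Bowtie2 2.3.4.3, Picard and build mm10 are named per the submitters' processing notes. Which peak caller was used, and how the inputs entered it, is not given in the sources used here; input lists are not analysed here. The deposited score of each summit was read as −log10 of a q-value, since every score lies above that of 0.05. Scores are not scaled between libraries, and list length and score both move with a depth that is unknown, so percentiles within a list were used. Reads were paired-end, 150 bp.

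Summits at most 200 bp apart on chromosomes 1 to 19, X and Y were merged (Python 3.11.15, pandas 2.3.3), and distances were taken to gene boundaries of the RefSeq gene table. Strands and promoter windows came from the RefSeq promoter table (GRCm38.p6), which had an entry for 308 of the 365 member genes. Exact two-sided permutation tests ran over libraries, with 20 relabellings for 3 against 3 and 64 sign patterns for 6 libraries. Merging, tests, strands and motif search were tested on simulated data. Alternatives were score limits, equal list lengths, merging distance, boundary distance, gene set, autosomes only, presence in all 6 libraries, leaving out each library, and the replicate block. The members and gene lists were chosen with earlier results of these data known. Named are the 12 members with the highest lowest percentile, the 5 largest EL and PT differences without overlap in each direction, the 5 members near the most genes, up to 4 members for each function list, those of marker lists, the 3 regions on either side of the 1 kb limit, and Zfp281. Some members that this rule names are not reported here.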

Additional observations from a re-analysis of the deposited data

How the results depend on the processing

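The EL minus PT difference in the share of summits near 2 or more genes was -1.05 points and 0.104 at equal list lengths. It was -0.791 with scores of at least 5 and -1.06 with scores of at least 10, while leaving out 1 library gave -1.24 to -0.822. The replicate numbers gave no sign of pairing: deviations of same-numbered libraries correlated at 0.0619, -0.0331 and -0.0123 over 1573 regions. Differently numbered libraries had -0.0896 to 0.103, and such values cannot show that libraries were unpaired. A replicate block left the difference in share at -1.05 (exact sign-flip permutation p = 0.25, the smallest for 3 pairs). The percentile difference between members and one-gene regions, 2.45 points, turned to -1.22 with scores of at least 10, -0.926 with merging at 50 bp, and -1.45 with a summit in all 6 libraries. It reached the smallest permutation p, 0.03125, at 3.93 points with boundaries within 500 bp, 2.15 within 2 kb and 2.28 with all annotated genes, and without single libraries it ran from -0.426 (PT library 3) to 2.88 (EL library 3), with -0.192 without PT library 2. The causes were not tested.

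The number of members was 104 with scores of at least 10, 119 at equal lengths, 106 within 500 bp, 400 with all annotated genes and 116 with all 6 libraries required, and 128 to 170 without single libraries. Their share of shared regions was 7.79%, 7.72%, 3.67%, 13.86% and 7.37% in the same order, 9.18% within 2 kb, and 6.28 to 6.78% without single libraries. Members in all libraries numbered 60 with scores of at least 10, 67 with merging at 50 bp, 76 within 500 bp, 246 with all annotated genes, and 115 to 143 without single libraries. The EL minus PT difference of median percentiles, 14.6 points, was 3.64 at equal lengths and 10.7 to 19.8 without single libraries. The head-to-head share was 62.6 to 68.6% in its 3 alternatives. The G-rich share of 47.2% was 18.7% over all promoters of member genes, a setting chosen after seeing the data. The share within 150 bp of the summit was not run, since no genome sequence was used here. Depth is unknown, so a missing summit in a short list does not show that ZFP281 was absent.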
